A study of Homo sapiens with 6 samples.

Results

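The genes described here are the long intergenic noncoding RNA (LINC) loci that were transcribed at a measurable rate in HCT116 cells. They are the sense-strand gene rows whose symbol is LINC followed by digits, which span more than 300 bp and which held at least 100 counts summed over 6 Bru-seq libraries. Of 22984 sense rows, 134 had such a symbol, all of them over 300 bp, and 38 reached 100 counts. The other 96 did not, and 41 of these had no count in any library. Symbols ending in -AS and a digit were also sought, but 0 rows had one, so no antisense-named gene is among the 38. The members with the fewest counts were LINC00327 with 111 and LINC00222 with 119, and the genes just outside were LINC00485 with 96 and LINC00246 with 86. The members were thus selected on their summed counts, so their overall level is given as a description, with no test.

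HCT116 is an established human colorectal carcinoma line. Bru-seq labels newly made RNA with bromouridine, here for 0.5 h at 2 mM, and captures and sequences it, so that the reads cover exons and introns of genes being transcribed. Of the 6 cultures, 2 received 0.01% DMSO for 4 h, 1 received siRNA against GSTO1 (siGSTO1, 10 nM) for 24 h, 2 received C1-27 at 1 µM for 4 h or 24 h, and 1 received C1-14 at 10 µM for 4 h. GSTO1 encodes glutathione transferase omega 1, C1-27 is the study's inhibitor of it, and C1-14 is the analogue the study calls inactive. Each treatment had 1 culture and 1 library. No 24 h DMSO culture and no culture with a non-targeting siRNA was analysed here, so for both 24 h groups the treatment and the time, and for siGSTO1 also the transfection, cannot be told apart.

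Long noncoding RNAs are made by RNA polymerase II, and most are spliced and polyadenylated like messenger RNAs but carry no long reading frame. Some act on chromatin or on proteins, some are the hosts of small RNAs, and some are products of transcription that leaves a neighbouring gene's promoter or runs past its end. LINC is a provisional name, and a locus often receives another symbol when its neighbour, its small RNA or a short encoded protein becomes known. All 38 genes matched a current RefSeq gene by symbol or synonym, and 15 now have another symbol. By RefSeq's present class 32 are long noncoding RNAs and 6 are protein coding.

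Sense counts ranged from 18112861 in DMSO library 1 to 36841146 with C1-27 at 24 h, and the antisense share of sense plus antisense counts from 2.85% to 3.96%. The epithelial genes EPCAM and KRT8 lay at 2.91 to 3.89 and 3.90 to 10.5 RPKM (reads of a gene scaled to its length and to the mapped reads of the library). The leukocyte gene PTPRC and the fibroblast genes COL1A2 and COL3A1 did not exceed 0.00203 RPKM in any library. The hepatocyte gene ALB did not exceed 0.0271 RPKM, whereas PECAM1, an endothelial gene, lay at 0.168 to 0.374 RPKM. Nascent GSTO1 was at 3.51 and 3.72 RPKM in the DMSO libraries, 2.70 with siGSTO1, 3.78 and 4.21 with C1-27 at 4 h and 24 h, and 3.82 with C1-14. Its log2 fold change with siGSTO1 was -0.54 and did not pass the test (edgeR adjusted p = 0.314). The siRNA acts on mature RNA, which Bru-seq does not measure.

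A single gene of the 38 passed the test in any comparison. LINC00263, now named OLMALINC, is a long noncoding RNA gene of 14779 bp on the plus strand of chromosome 10, at chr10:102133333-102148111 in hg19, the build of the deposited files. It had 62 and 115 counts in DMSO libraries 1 and 2, 300 counts with siGSTO1, 104 and 443 with C1-27 at 4 h and 24 h, and 111 with C1-14. Per length and depth this came to 0.179 and 0.191 RPKM in DMSO, 0.773 RPKM with siGSTO1, 0.182 and 0.651 RPKM with C1-27 at 4 h and 24 h, and 0.217 RPKM with C1-14. Both 24 h libraries stood far above the DMSO libraries, and both 4 h treatments lay close to them. In bulk cultures, more cells transcribing a gene and more transcription per cell cannot be told apart.

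Tests of single genes were made with edgeR's quasi-likelihood method on 14431 genes, with adjusted p-values over all of them. The spread between libraries comes from the pair of DMSO cultures, with 1 residual degree of freedom, and is shared across genes. In this test LINC00263 rose by 1.94 ± 0.45 (log2 fold change ± standard error) with siGSTO1 (adjusted p = 0.000978). It rose by 1.75 ± 0.43 with C1-27 at 24 h (edgeR adjusted p = 0.0212), a call that was lost with DESeq2 (log2 fold change 1.74, adjusted p = 0.385) and in edgeR without composition factors. With C1-27 at 4 h the log2 fold change was -0.01 ± 0.52 and with C1-14 it was 0.23 ± 0.52. Between C1-27 at 24 h and at 4 h it was 1.76 ± 0.52, which did not pass after adjustment (edgeR adjusted p = 0.262).

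As ratios of RPKM to the DMSO mean of 0.185 ± 0.00806 (SD, n = 2), the same values were 4.18 with siGSTO1, 0.983 and 3.52 with C1-27 at 4 h and 24 h, and 1.17 with C1-14. The exact 95% confidence interval of the treated count over the summed counts of both DMSO libraries, scaled for depth (Clopper-Pearson, counting error only), ran from 3.43 to 5.02 for siGSTO1 and from 2.93 to 4.18 for the 24 h C1-27 library. It ran from 0.758 to 1.25 for the 4 h C1-27 library, and from 0.907 to 1.48 for C1-14. Against either DMSO library alone, the siGSTO1 ratio was 4.31 and 4.05.

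The nearest gene to LINC00263 is SCD, stearoyl-CoA desaturase, which introduces the double bond of oleic and palmitoleic acid. SCD lies at chr10:102106772-102124588 in hg19 on the same strand, and ends 8744 bp before LINC00263 starts. SCD was at 3.07 and 2.36 RPKM in DMSO, 12.4 RPKM with siGSTO1, 2.31 and 7.50 RPKM with C1-27 at 4 h and 24 h, and 3.84 RPKM with C1-14. The order of libraries therefore resembles that of LINC00263, with both 24 h libraries on top. In edgeR, SCD rose by 2.08 ± 0.24 on the log2 scale with siGSTO1 (adjusted p = 4.63e-15) and by 1.42 ± 0.24 with C1-27 at 24 h (adjusted p = 5.35e-06). It also rose between C1-27 at 4 h and 24 h, by 1.62 ± 0.29 (edgeR adjusted p = 0.000105). LINC00263 RPKM amounted to 5.64% to 8.69% of SCD RPKM across the 6 libraries. Gene-level counts do not separate RNA that starts at LINC00263 from SCD transcription that runs past the annotated SCD end, and the part of such transcription in the result was not tested. INSIG1, a sterol-sensing gene on another chromosome, rose by 2.08 ± 0.33 and 1.60 ± 0.33 in the same 2 comparisons (edgeR adjusted p = 8.86e-08 and 0.000848).

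**Figure D1:**
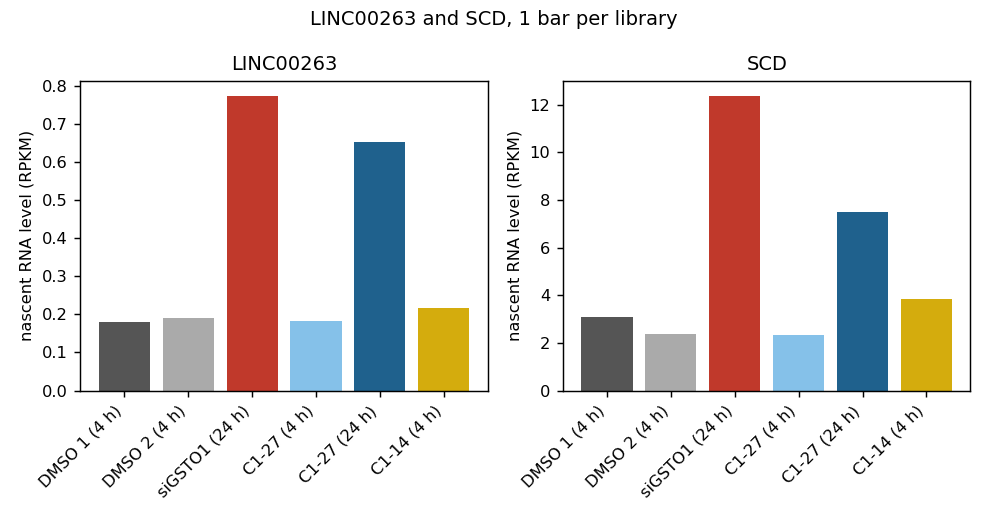
Nascent RNA level (RPKM) of LINC00263 on the left and SCD on the right, with 1 bar per library and no error bars because each bar is a single library. Both genes were highest with siGSTO1 (0.773 and 12.4 RPKM) and next highest with C1-27 at 24 h (0.651 and 7.50 RPKM).

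The promoter windows of this pair are printed because LINC00263 is the member that rose and SCD its neighbour. Each window holds 250 bases before and 50 after the RefSeq start (GRCh38.p14), at chr10:100373326-100373625 for LINC00263 and chr10:100346983-100347282 for SCD, both on the plus strand, 5′ to 3′. Capitals mark motif matches.
LINC00263: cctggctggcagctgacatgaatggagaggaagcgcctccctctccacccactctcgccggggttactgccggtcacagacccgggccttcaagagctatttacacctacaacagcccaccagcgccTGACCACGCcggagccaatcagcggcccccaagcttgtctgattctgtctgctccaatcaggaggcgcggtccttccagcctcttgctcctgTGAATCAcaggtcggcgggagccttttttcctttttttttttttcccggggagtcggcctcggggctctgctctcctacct
SCD: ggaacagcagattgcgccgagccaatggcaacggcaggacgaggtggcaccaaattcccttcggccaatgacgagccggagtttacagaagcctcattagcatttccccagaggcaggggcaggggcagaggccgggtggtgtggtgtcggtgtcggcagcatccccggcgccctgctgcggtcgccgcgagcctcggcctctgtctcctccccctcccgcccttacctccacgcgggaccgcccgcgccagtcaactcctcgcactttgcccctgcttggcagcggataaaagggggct

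Of the 38 genes, 31 had a window in the RefSeq table, and 6 motifs were searched on both strands. The LINC00263 window held the antioxidant response element pattern TGACNNNGC at positions 128 to 136, counted from the 5′ end, and the AP-1 pattern TGANTCA at positions 220 to 226. The SCD window held none of the 6. Among 35116 promoters of the same length 13.3% hold TGACNNNGC and 7.71% hold TGANTCA, and 7 of the 31 member windows hold each. The sterol response element pattern TCACNCCAC, in 1.13% of promoters, was found in 1 member window, that of LINC00222. The ATF4-C/EBP pattern TGATGNAA was in the window of LINC00478, and it occurs in 3.62% of promoters. The TEAD pattern GGAATG was in 3 windows, against 14.0% of promoters. A match is a description of letters and not a bound site.

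In DMSO the 38 genes spanned a wide range of levels. The mean RPKM of the DMSO libraries ran from 0.000846 for LINC00478 to 6.43 for LINC00338, with a median of 0.224, against a median of 0.692 over all 13387 genes with at least 100 counts. A level above 0.5 RPKM was reached by 13 members, while 12 lay between 0.1 and 0.5 and 13 under 0.1 RPKM. At the extremes of stated length the levels differed, but a minimum of 100 counts demands a higher RPKM of a shorter gene. The rule thus fixed part of this contrast, and a relation of level to length was not tested. The 5 members over 100000 bp had 0.000846 to 0.0549 RPKM, and the 7 under 5000 bp had 0.249 to 2.34 RPKM. LINC00470 collected the most counts, 8490 over the 6 libraries, at a length of 91319 bp and a level of 0.414 to 0.467 RPKM. All members together took 257 to 312 of every 1000000 sense counts, lowest with C1-14 and highest with siGSTO1, and 262 and 266 in DMSO.

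**Figure D2:**
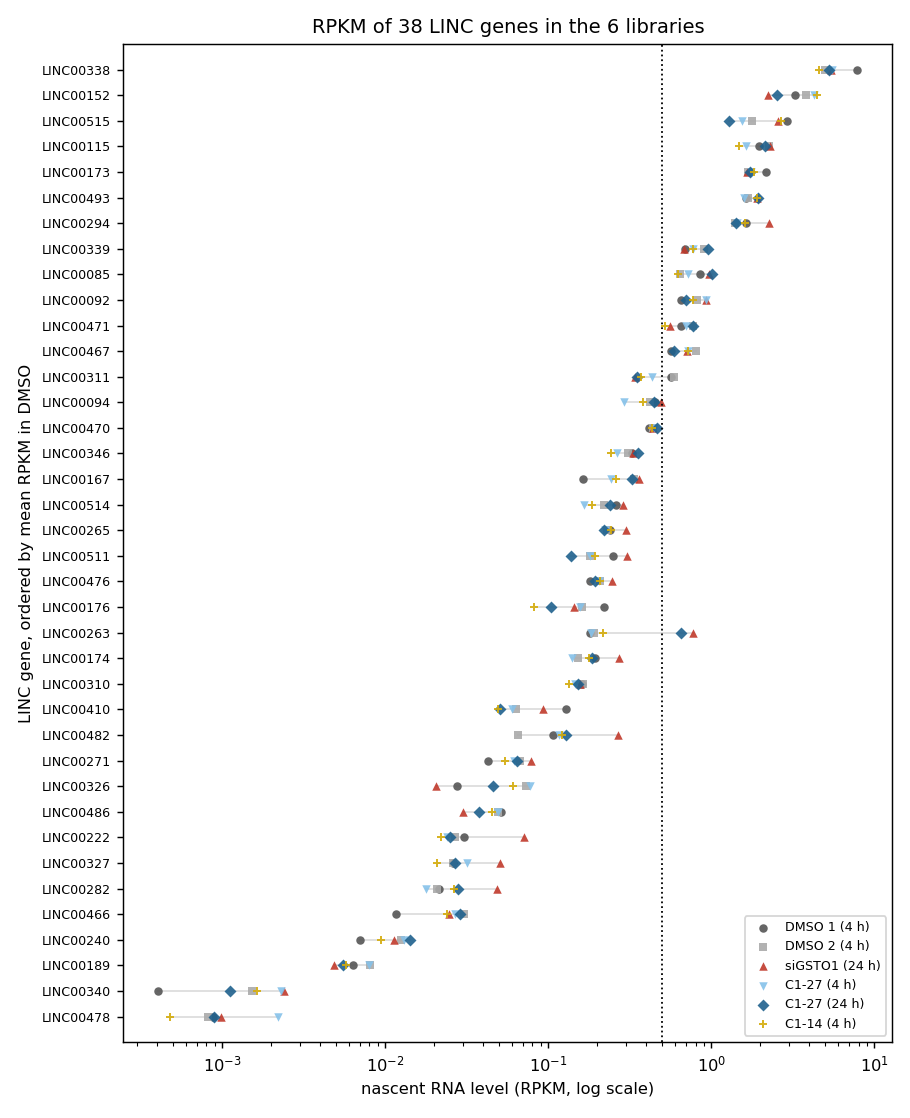
RPKM of each of the 38 LINC genes in the 6 libraries (log scale), ordered by the DMSO mean, with a dotted line at 0.5 RPKM and a grey line joining the lowest and highest library. LINC00263 is the member near the middle of the order whose siGSTO1 and C1-27 24 h libraries (0.773 and 0.651 RPKM) stand apart from the other 4 (0.179 to 0.217 RPKM).

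The DMSO libraries set how much can be read from the other genes. Of the 38 members, 11 differed by 1.4-fold or more between DMSO libraries 1 and 2, which was 7 higher and 4 lower in library 2. The same comparison called 6.05% of all genes with at least 100 counts higher and 21.9% lower. Of these 11, 5 had fewer than 20 counts in a DMSO library, as did 10 of all 38. The SD of the log2 ratio between the DMSO libraries was 0.609 over the members (n = 38) and 0.388 over the 7825 genes with a mean above 0.5 RPKM. The extremes were LINC00340, at 0.000405 and 0.00153 RPKM from 5 and 33 counts, and LINC00410, at 0.128 and 0.0633 RPKM from 107 and 92 counts.

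With siGSTO1, the median log2 fold change of the 38 genes was 0.08, against 0.02 over all 14431 genes tested, and 22 values were above 0 and 16 below. With edgeR 1 member was higher, LINC00263, where 3.69% of all genes were called higher, and 0 were lower, where 1.21% of all genes were. At an unadjusted p under 0.05 the count was 2, with LINC00482 as the other, beside 15.2% of all genes. Another count, which involves no test, took genes 1.4-fold or more from the mean RPKM of both DMSO libraries, among genes that averaged over 0.5 RPKM across treatment and control. The thresholds are those of the study's methods, but the exact control and mean used there are not stated in the sources used here, so its gene lists need not be the same. In this count 12 members could be judged with siGSTO1, and 1 was higher (LINC00294) and 1 lower (LINC00152). The same count called 10.5% of all genes higher and 6.48% lower. As computed here, the mean of treated and control RPKM of LINC00263 fell just under the limit, so it is missing from this count although it was 4.18-fold higher.

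With C1-27 at 4 h, edgeR called 0 members in either direction, beside 0.0208% of all genes called higher and 0.0% lower. At an unadjusted p under 0.05, 1 member was found, LINC00478, beside 0.797% of all genes, and DESeq2 also called 0. By the 1.4-fold count 0 of 13 members were higher and 1 lower (LINC00515), against 0.457% and 2.22% of all genes. With C1-27 at 24 h, edgeR called 1 member higher, LINC00263, beside 0.194% of all genes, and 0 lower, beside 0.166%. LINC00263 was also the 1 member at an unadjusted p under 0.05, beside 4.28% of all genes. By the 1.4-fold count 0 of 12 were higher and 2 lower (LINC00152 and LINC00515), against 3.23% and 3.49% of all genes. The median log2 fold changes of the members were -0.04 and -0.05 at 4 h and 24 h, and those of all genes -0.02 and 0.00.

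With C1-14 at 4 h, edgeR called 0 members, beside 0.132% of all genes called higher and 0.00693% lower, and 0 members had an unadjusted p under 0.05, beside 1.61% of all genes. DESeq2 also called 0. By the 1.4-fold count 0 of 12 were higher and 2 lower (LINC00338 and LINC00115), against 3.71% and 1.01% of all genes, and the median log2 fold change of the members was -0.04. C1-14 was given at 10 µM and C1-27 at 1 µM, so their values stand side by side and the compounds were not compared. Between C1-27 at 24 h and 4 h, edgeR called 0 members, beside 0.0416% of all genes called higher and 0.0832% lower, with 0 calls by DESeq2. At an unadjusted p under 0.05 there were 2 members, LINC00263 and LINC00478, beside 2.9% of all genes. The comparisons with DMSO share their control libraries and are not independent of each other.

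**Figure D3:**
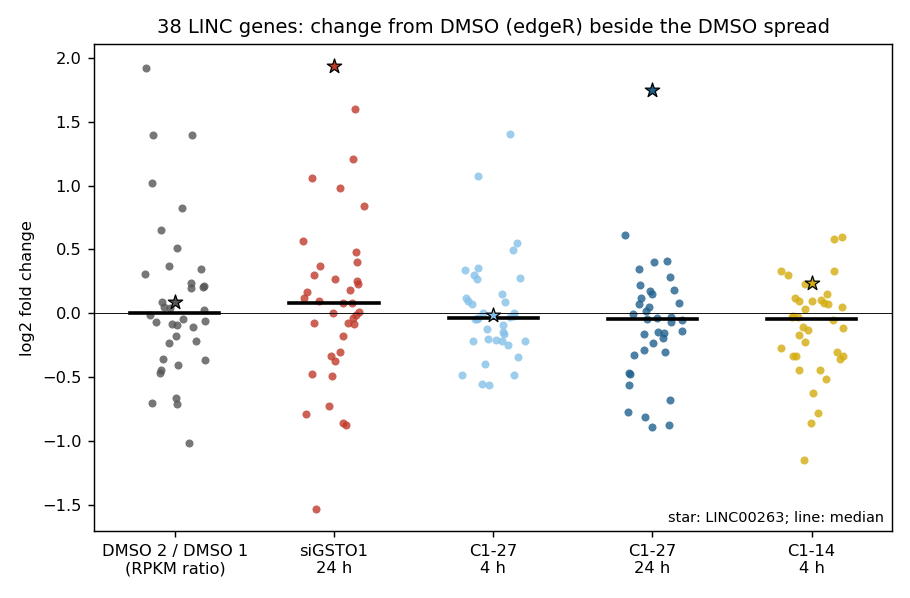
Log2 fold changes of the 38 LINC genes, with the ratio of DMSO library 2 to library 1 on the left and edgeR values against DMSO for 4 treatments, 1 point per gene, a line at the median and a star for LINC00263. Most treated points lie within the range of the DMSO ratio, and the star lies at 1.94 with siGSTO1 and 1.75 with C1-27 at 24 h.

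The most actively transcribed member per counted bp is named as a host of small RNAs, and another member lies beside microRNAs. LINC00338, now SNHG20 (small nucleolar RNA host gene 20), has 1639 counted bp at chr17:75089430-75091068 in hg19, of a stated length of 6344 bp, and ends next to the start of SEC14L1 on the same strand. It was at 7.88 and 4.98 RPKM in DMSO, 5.40 RPKM with siGSTO1, 5.53 and 5.30 RPKM with C1-27 at 4 h and 24 h, and 4.58 RPKM with C1-14. DMSO library 1 was the high library, and the other 5 lay within 4.58 to 5.53 RPKM, so the 0.712-fold value with C1-14 was 0.919-fold against DMSO library 2 alone. LINC00085 lies next to MIR125A and downstream of MIR99B and MIRLET7E on the same strand of chromosome 19, and the locus is now annotated as the protein-coding gene SPACA6. It was at 0.851 and 0.642 RPKM in DMSO, 0.961 RPKM with siGSTO1, 0.724 and 1.01 RPKM with C1-27, and 0.622 RPKM with C1-14. Its log2 fold changes ran from -0.22 to 0.41, with none past the test.

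LINC00478, now MIR99AHG, the host of the MIR99A and MIRLET7C cluster, was at the bottom of the range. Its 120 counts over 538999 counted bp were 11 and 18 in DMSO, 14 with siGSTO1, 46 and 22 with C1-27 at 4 h and 24 h, and 9 with C1-14. The C1-27 4 h library stood above the other 5. Its log2 fold change there was 1.41 ± 0.59, with an interval of the count ratio from 1.62 to 4.34, and it did not pass after adjustment over all genes (edgeR adjusted p = 1.00).

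Of the cancer-associated members, LINC00152 (CYTOR), a cytoplasmic RNA often raised in carcinomas, followed LINC00338 in level. Only 952 of its 66057 bp were counted, and its whole span lies inside the row of RGPD on the same strand. The genome also holds a near-identical copy of LINC00152. Reads could be split between the copies, so its values are uncertain. Where members overlapping a same-strand gene were left out, LINC00152 was among those dropped. It was at 3.26 and 3.79 RPKM in DMSO, 2.22 RPKM with siGSTO1, 4.26 and 2.52 RPKM with C1-27 at 4 h and 24 h, and 4.46 RPKM with C1-14. Both 24 h libraries lay under both DMSO libraries and both 4 h treatments above them. The siGSTO1 value was 0.630 of the DMSO mean, 0.680 and 0.586 against the single libraries, from 56 counts against 73 and 147. The interval of the count ratio ran from 0.455 to 0.838, and the log2 fold change of -0.79 ± 0.57 did not pass the test (edgeR adjusted p = 0.574). With C1-27 at 24 h it was -0.57 ± 0.50, which also did not pass.

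LINC00467, a gene of 49781 bp downstream of TRAF5 on the same strand, had 7208 counts in all, more than any other member but LINC00470. It was at 0.567 and 0.810 RPKM in DMSO, 0.709 RPKM with siGSTO1, 0.715 and 0.590 RPKM with C1-27, and 0.723 RPKM with C1-14. All 4 treated libraries lay between the DMSO libraries, which differed 1.43-fold. Its log2 fold changes were within -0.29 to 0.08, with standard errors of 0.27 to 0.28. Without DMSO library 2 they ran from 0.0445 with C1-27 at 24 h to 0.42 with C1-27 at 4 h, and those with C1-27 at 24 h and with siGSTO1 turned from negative to positive. LINC00470 differed 1.06-fold between the DMSO libraries, with log2 fold changes of -0.07 to 0.09 and standard errors of 0.26 to 0.27.

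LINC00511 lies at chr17:70594180-70636611 in hg19, 5236 bp from LOC100499467 on the same strand, a noncoding gene now named LINC00673. LINC00511 was at 0.250 and 0.180 RPKM in DMSO, 0.303 RPKM with siGSTO1, 0.180 and 0.137 RPKM with C1-27 at 4 h and 24 h, and 0.194 RPKM with C1-14. The C1-27 24 h library was the lowest and siGSTO1 the highest. Neither its log2 fold change of 0.40 ± 0.39 with siGSTO1 nor that of -0.68 ± 0.40 with C1-27 at 24 h passed the test. LOC100499467 was at 1.31 and 1.16 RPKM in DMSO and 0.594 RPKM with C1-27 at 24 h, where it fell by 1.11 ± 0.27 on the log2 scale (edgeR adjusted p = 0.0178). With siGSTO1 its log2 fold change was 0.04.

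Several members lie just downstream of a transcribed gene on the same strand, as LINC00263 does. LINC00294 starts 2586 bp past TCP11L1 and was at 1.63 and 1.402 RPKM in DMSO, 2.27 RPKM with siGSTO1, 1.45 and 1.41 RPKM with C1-27, and 1.61 RPKM with C1-14. The siGSTO1 library stood above the other 5, 1.4998-fold over the DMSO mean, with log2 fold changes of 0.48 ± 0.45 for LINC00294 (edgeR adjusted p = 0.702) and 0.68 for TCP11L1. LINC00515, of 450 bp and 2431 bp past MRPL39, was at 2.90 and 1.78 RPKM in DMSO, 2.57 RPKM with siGSTO1, 1.55 and 1.29 RPKM with C1-27, and 2.69 RPKM with C1-14. These rest on 27 to 42 counts per library, and both C1-27 libraries lay under both DMSO libraries. Its log2 fold changes of -0.49 ± 0.65 and -0.81 ± 0.65 did not pass the test.

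LINC00482, which starts 2023 bp past TMEM105, followed LINC00263 in its log2 fold change with siGSTO1. It had 16 and 17 counts in DMSO, 45 with siGSTO1, 29 and 38 with C1-27 at 4 h and 24 h, and 27 with C1-14. In RPKM this was 0.106 and 0.0649, then 0.267, 0.117 and 0.129, and 0.121, so that all treated libraries lay above both DMSO libraries. That pattern was found in 1 of the 38 members and in 4.29% of all genes with at least 100 counts. The log2 fold change with siGSTO1 was 1.60 ± 0.64 (edgeR adjusted p = 0.148), and that of TMEM105 was 0.80.

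The opposite pattern, with all treated libraries under both DMSO libraries, was found in 3 members (LINC00311, LINC00176 and LINC00310) and in 2.2% of all genes. LINC00311 was at 0.568 and 0.586 RPKM in DMSO, 0.342 RPKM with siGSTO1, 0.434 and 0.352 RPKM with C1-27, and 0.373 RPKM with C1-14. Its count ratios had intervals with upper ends of 0.816, 0.968, 0.788 and 0.851 in that order. The log2 fold changes of -0.88 ± 0.59, -0.40 ± 0.51, -0.78 ± 0.52 and -0.63 ± 0.54 did not pass the test. LINC00176, now the protein-coding gene C20orf204, starts 1243 bp past PRPF6 and was at 0.220 and 0.161 RPKM in DMSO, 0.143 RPKM with siGSTO1, 0.156 and 0.104 RPKM with C1-27, and 0.0821 RPKM with C1-14. Its values rest on 16 to 37 counts per library.

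Another set of members shares a start region with a gene on the other strand. LINC00271, now AHI1-DT (divergent transcript of AHI1, a gene of ciliary biology), starts 36 bp from the start of AHI1 in the deposited coordinates. LINC00271 was at 0.0427 and 0.0671 RPKM in DMSO, 0.0783 RPKM with siGSTO1, 0.0612 and 0.0645 RPKM with C1-27, and 0.0541 RPKM with C1-14. AHI1 was at 1.14 and 1.13 RPKM in DMSO, 1.11 RPKM with siGSTO1, 1.11 and 1.17 RPKM with C1-27, and 1.03 RPKM with C1-14. The coding side was thus the stronger in every library and varied little. Log2 fold changes were -0.03 to 0.37 for LINC00271 and -0.14 to -0.01 for AHI1, none past the test. The RefSeq window of LINC00271 (GRCh38.p14 chr6:135497551-135497850, plus strand, 5′ to 3′) is printed to show such a shared start, with the cyclic AMP response element pattern TGACGTCA in capitals at positions 219 to 226.
LINC00271: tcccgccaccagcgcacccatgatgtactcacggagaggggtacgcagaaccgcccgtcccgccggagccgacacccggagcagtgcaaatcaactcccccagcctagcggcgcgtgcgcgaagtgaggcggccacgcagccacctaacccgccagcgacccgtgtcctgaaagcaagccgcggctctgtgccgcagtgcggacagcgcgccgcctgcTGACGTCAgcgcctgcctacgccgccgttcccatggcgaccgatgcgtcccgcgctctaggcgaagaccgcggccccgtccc

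The AHI1 window on the minus strand shares 160 of its 300 bases with it as their reverse complement, and the same TGACGTCA falls at positions 215 to 222 of that window. The pattern is in 1.85% of all promoters and in 2 of the 31 member windows. LINC00476, now ERCC6L2-AS1, overlaps C9orf102 by 360 bp at their divergent starts and was at 0.180 and 0.207 RPKM in DMSO and 0.193 to 0.247 RPKM in the treated libraries. LINC00167, now PRDM10-DT, overlaps PRDM10 by 212 bp and was at 0.164 and 0.334 RPKM in DMSO from 11 and 39 counts, so the DMSO libraries alone spanned nearly the range of 0.164 to 0.359 RPKM. LINC00115, 161 bp from LOC643837, was at 1.95 and 2.25 RPKM in DMSO, 2.29 RPKM with siGSTO1, 1.64 and 2.14 RPKM with C1-27, and 1.47 RPKM with C1-14. The C1-14 library was the lowest, with a log2 fold change of -0.52 ± 0.55 that did not pass the test.

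The remaining members with the highest levels varied by up to 1.42-fold between their lowest and highest library. LINC00173, at 2.17 and 1.69 RPKM in DMSO, lay at 1.66 to 1.84 RPKM in the treated libraries. LINC00493, now SMIM26, which encodes a small membrane protein, was at 1.63 and 1.67 RPKM in DMSO and 1.58 to 1.94 RPKM in the treated libraries. LINC00339 ranged from 0.678 to 0.955 RPKM and LINC00092 from 0.655 to 0.932 RPKM over the 6 libraries. None of the 4 passed the test in any comparison.

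Of the other loci that RefSeq now lists as protein coding, LINC00094 (BRD3OS) was at 0.451 and 0.418 RPKM in DMSO and 0.291 RPKM with C1-27 at 4 h, its lowest library. LINC00282 (TMEM272) had 16 and 27 counts in DMSO and 40 with siGSTO1, with a log2 fold change of 1.06 ± 0.63 that did not pass the test. Its nearest gene, DHRS12, gave 1.04 in the same comparison. LINC00514 (GREP1) had more antisense than sense counts, 289 against 253 over all libraries.

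For the 37 members with a row for the antisense strand, the median sense share was 94.5% of the counts on both strands. LINC00167 had no such row. Of the 37, 4 members had more antisense than sense counts. These were LINC00240 with a sense share of 19.2%, LINC00326 with 32.7%, LINC00327 with 38.3% and LINC00514 with 46.7%. The labels state a strand-specific protocol for some of the libraries only, and the part of the other strand in the sense values was not tested. LINC00326, of 18499 bp, had 12 and 55 sense counts in DMSO, 10 with siGSTO1, 55 and 39 with C1-27, and 39 with C1-14. Its antisense counts were 9 and 111 in DMSO, 22 with siGSTO1, 118 and 87 with C1-27, and 85 with C1-14. Both strands were low in DMSO library 1 and with siGSTO1 and higher in the other 4 libraries. The DMSO libraries themselves differed 2.63-fold in RPKM, and the log2 fold change of -1.54 ± 0.85 with siGSTO1 did not pass the test (edgeR adjusted p = 0.387).

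**Figure D4:**
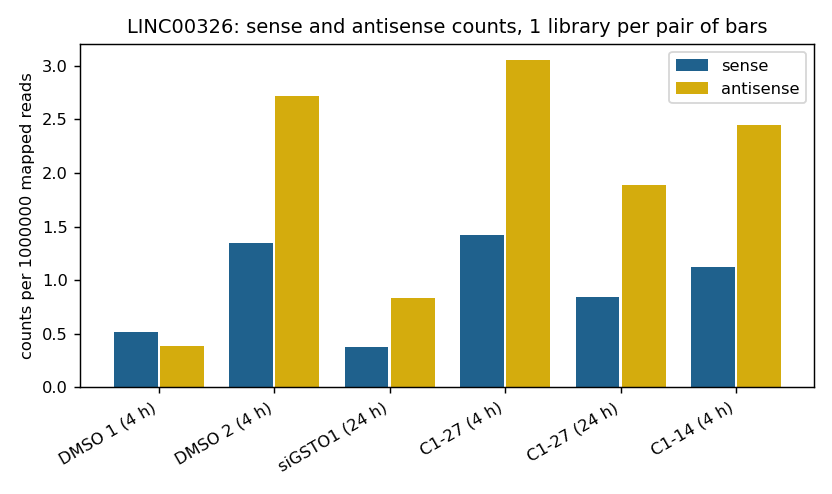
Sense and antisense levels of LINC00326 in counts per 1000000 mapped reads, with 1 pair of bars per library and no error bars because each is a single library. DMSO library 1 (0.513 sense, 0.385 antisense) and siGSTO1 (0.381 and 0.838) were low on both strands beside DMSO library 2 (1.35 and 2.72).

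The nearest gene row was on the same strand for 23 of the 38 members, upstream of the member in 15 and downstream in 8. It was on the opposite strand in 9 divergent, 4 convergent and 2 nested arrangements, and within 10000 bp or overlapping for 26 members. Of these nearest genes, 30 had enough counts to be tested. With siGSTO1, 1 of the 30 was called higher (SCD), beside 3.69% of all genes, and 1 lower (MIR17HG), beside 1.21%. MIR17HG lies 421222 bp from LINC00410. With C1-27 at 24 h, 1 was called higher (SCD), beside 0.194% of all genes, and 1 lower (LOC100499467), beside 0.166%. In either 4 h comparison 0 of the 30 were called. The shares of all genes called higher and lower there were 0.0208% and 0.0% with C1-27, and 0.132% and 0.00693% with C1-14. LINC00263 was the only member to pass the test, so no other pair could have had both genes called. Its nearest gene, SCD, also passed in the siGSTO1 and the C1-27 24 h comparisons.

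**Figure D5:**
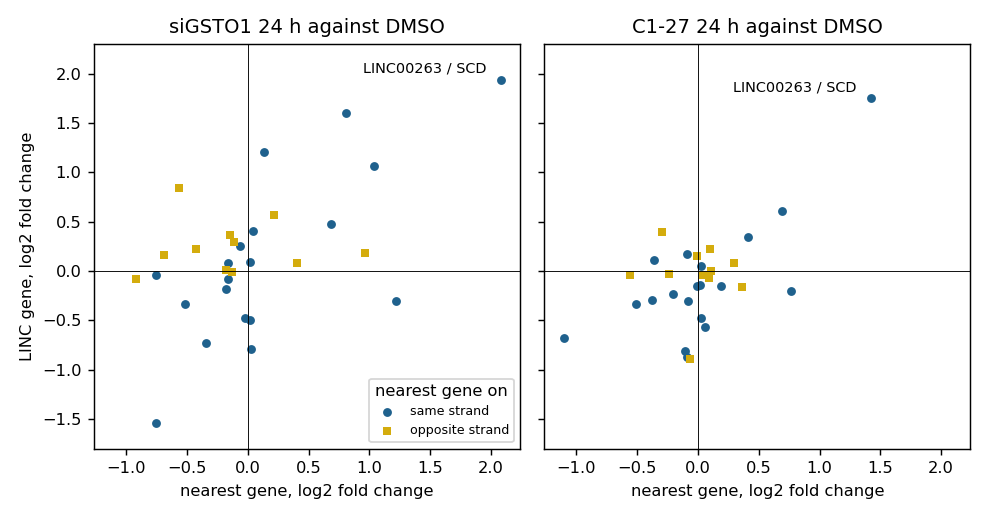
EdgeR log2 fold change of each LINC gene (vertical) against that of its nearest gene row (horizontal) for the 30 pairs whose nearest gene was tested, with circles for the same strand and squares for the opposite strand. LINC00263 with SCD stands at the upper right, at 1.94 and 2.08 with siGSTO1 and at 1.75 and 1.42 with C1-27 at 24 h.

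The library with siGSTO1 was the highest of the 6 for 16 of the 38 members, which is 42.1%, and for 36.0% of all 13387 genes with at least 100 counts. C1-14 was highest for 1 member, LINC00152, which is 2.63%, and for 9.79% of all genes. DMSO library 1 was lowest for 10 of the 38 members and for 17.7% of all genes. Against each DMSO library alone, 6 members were 1.4-fold or more higher with siGSTO1 and 3 lower, beside 17.1% and 3.2% of all genes with at least 100 counts. The 6 were LINC00263, LINC00482, LINC00222, LINC00327, LINC00282 and LINC00340, and of these only LINC00263 passed the test. The 3 lower ones were LINC00152, LINC00311 and LINC00486. For C1-27 at 4 h this count gave 2 higher members and 1 lower one, beside 0.508% and 1.63% of all genes. The 24 h C1-27 library gave 1 higher and 2 lower, beside 5.02% and 1.81%, and C1-14 gave 0 and 3, beside 1.9% and 1.3%.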

How the data were processed

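The files analysed hold 6 Bru-seq libraries, 1 text table each, with rows per gene and strand (hg19). The submitters' processing notes name CASAVA 1.8.2, Bowtie 0.12.8, TopHat 1.4.1 and bedtools 2.16.2, without their roles. The authors deposited estimated counts per gene over exons and introns, with no normalization and in part as fractions. Their deposited signal, a count divided by the counted bp, entered no test. RPKM was computed by the authors, and its values match the counted bp of a gene and 23388425 to 46017052 mapped reads per library. Columns of other samples numbered 0.

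The 38 genes, the gene lists and the motifs were chosen with earlier results of these data known. Ratios were taken as treated RPKM over the mean of both DMSO libraries, called at 1.4-fold for genes over 300 bp with a mean RPKM above 0.5, with no pseudocount. Counts rounded to whole numbers were fitted with edgeR 4.0.16 in R 4.3.3 (TMM, quasi-likelihood, at least 10 counts in at least 2 libraries, Benjamini-Hochberg over 14431 genes, 5 groups, common dispersion 0.0381). Standard errors of edgeR log2 fold changes were derived from the test, as the absolute log2 fold change divided by the square root of its F statistic. DESeq2 1.42.0 was an alternative. With 1 library per treatment, p-values measure treated libraries against the spread of 2 DMSO libraries, which may be technical. The 95% intervals of count ratios (Clopper-Pearson, scipy 1.17.1) cover counting error only. Promoter windows and current gene symbols are from RefSeq (GRCh38.p14), matched by symbol or synonym.

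Genes were named if called by edgeR, if past 1.4-fold against each DMSO library above 0.5 RPKM, if among the 10 highest in DMSO, or if on a short list of known long noncoding RNAs (LINC00152, LINC00263, LINC00467 and LINC00511 were measured). Others were named after their values were seen. Partner genes of antisense-named members could not be listed, since 0 rows carry such a name. On simulated data for siGSTO1 against DMSO over 14431 genes at a dispersion of 0.05, edgeR found 10 of 100 genes changed 2-fold and 92 of 100 changed 4-fold, with 5 false calls. At a dispersion of 0.01 it found 90 and 100 of 100, with 9 false calls. Changes were planted only in genes expected to have over 100 counts in a library of average depth. The members had a median of 534 counts summed over the 6 libraries, and recovery at lower counts was not simulated. Alternatives covered the DMSO library, scaling, pseudocount, filters, fold threshold, overlapping genes and the test.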

Additional observations from a re-analysis of the deposited data

How the results depend on the processing

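The rise of LINC00263 with siGSTO1 kept its direction under every alternative run, with log2 fold changes of 1.61 to 2.04, and its call under each that carried a test. Its rise with C1-27 at 24 h kept its direction (1.398 to 1.85) but not its call: the count of members called there went from 1 to 0 with DESeq2 (log2 fold change 1.74, adjusted p = 0.385) and to 0 without composition factors, and the cause was not tested. Without composition factors the median of all genes moved to 0.18 on the log2 scale with siGSTO1.

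Counts past 1.4-fold rest on few genes. From 2 members with siGSTO1 they moved to 1 with TMM factors or without members overlapping a same-strand gene, to 16 without a minimum RPKM and to 0 at 2-fold, and to 3 to 4 when either DMSO library was left out. From 1 with C1-27 at 4 h they moved to 7 without the minimum, to 0 at 2-fold or with at least 500 counts, and to 3 without DMSO library 2 and 0 without DMSO library 1. From 2 with C1-27 at 24 h they moved to 1 with a pseudocount of 0.1 RPKM, with at least 500 counts or without overlapping members, to 9 without the minimum and to 0 at 2-fold, and stayed at 2 without either DMSO library. From 2 with C1-14 they moved to 1 with TMM or DESeq2 size factors, to 0 with the pseudocount or at 2-fold, to 8 without the minimum, and to 1 without DMSO library 2 and 3 without DMSO library 1.

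LINC00467 turned with C1-27 at 24 h, from -0.29 to 0.0445 on the log2 scale, without DMSO library 2 (-0.54 without DMSO library 1), and moved there from -0.08 to 0.26 with siGSTO1, and to 0.42 with C1-27 at 4 h and 0.41 with C1-14. Counting the genes ending in -AS as members, an alternative added after the data had been seen, changed no edgeR count and raised the 1.4-fold counts from 2 to 3 with siGSTO1 and from 2 to 3 with C1-14. No paired analysis was possible because only the DMSO group has replicate numbers. Leaving out a DMSO library leaves no residual degree of freedom, so those values carry no test.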

Other observations

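Another 5 genes of the files are named with -AS and no digit, and 3 of them had at least 100 counts. CDKN2B-AS (now CDKN2B-AS1 or ANRIL), which lies against the CDKN2A and CDKN2B tumour suppressor genes, had 0.251 and 0.294 RPKM in DMSO, 0.283 RPKM with siGSTO1, 0.293 and 0.340 RPKM with C1-27 at 4 h and 24 h, and 0.275 RPKM with C1-14. The C1-27 24 h library was the highest, with a log2 fold change of 0.26 ± 0.27 that did not pass the test. DICER1-AS, antisense to the microRNA-processing gene DICER1, had 0.213 and 0.236 RPKM in DMSO, 0.277 RPKM with siGSTO1, 0.215 and 0.283 RPKM with C1-27, and 0.219 RPKM with C1-14, so that both 24 h libraries lay above the other 4. Its log2 fold changes of 0.18 ± 0.46 and 0.27 ± 0.43 in those libraries did not pass the test. BACE1-AS had 15 to 30 counts per library, with 1.18 and 0.893 RPKM in DMSO and its lowest value, 0.544 RPKM, with C1-14 (log2 fold change -0.87 ± 0.73, not past the test). IGF2-AS had 4 counts over all libraries and WT1-AS had 0.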
